A study of Mus musculus with 4 samples.

Results

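Heat shock chaperones of the cytosol and the mitochondria, with their cochaperones and the factors that control them, were followed in mouse leukemic bone marrow. The 39 genes were chosen by name from this chaperone network, and 36 of them had a probe set of their own among the 19938 genes measured. Hspa1b, Hsp90ab1 and Hsf1 were not analysed here. The 2 genotypes compared had 2 microarrays each, on RNA from leukemic whole marrow of C57BL/6 mice. Both carried the MLL-AF9 fusion oncogene. One was labelled Hes1 null (Hes1-/-, written Hes1-null below) and the other wild type (Hes1+/+). Hes1 encodes a transcriptional repressor that acts downstream of Notch, and the comparison addresses what its loss changes in this leukemia. How MLL-AF9 was introduced, how Hes1 was removed, the age of the mice and any pooling are not given in the sources used here. Levels are log2 of the deposited intensity. Every difference subtracts the wild-type mean from the Hes1-null mean on that scale. A value after ± is its SE (n = 2 arrays in each genotype, unless an array is said to be left out).

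Heat shock proteins keep other proteins folded. Hsp70 binds exposed stretches of unfolded chains, J-domain proteins deliver the chains and start ATP hydrolysis, and nucleotide exchange factors release them. Hsp90 then matures kinases, receptors and transcription factors with its own cochaperones, while Hsp60 and Hsp10 fold imported chains inside mitochondria. In unstressed cells many of these genes are active all the time. Under heat or misfolding stress the transcription factor Hsf1 forms trimers, binds heat shock elements in promoters and induces a subset, for which Hspa1a, Dnajb1 and Hsph1 are textbook examples. Hematopoietic cells depend on this machinery, and Hsp90 clients include the receptor kinases of myeloid leukemia.

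A heat shock element is a run of inverted nGAAn units, and a search for it set the promoters beside the expression values. In the 250 bases before each RefSeq start (build GRCm38.p6), a 2-unit match was GAANNTTC or TTCNNGAA and a 3-unit match GAANNTTCNNGAA or TTCNNGAANNTTC. These pairs of forms cover both strands, and every 3-unit match also holds 2-unit matches. RefSeq windows were found for 31 of the 39 genes. A 2-unit match lay in 12 of the 31 genes (38.7%), against 14.5% of 27025 genes with a window. A 3-unit match lay in 3 of the 31 (Hspd1, Hspe1 and Dnajb6; 9.68%), against 0.514% of all genes. The stretches below belong to genes whose values are described further on, read 5′ to 3′ on the gene's strand with matches in capitals. That of Hspe1 (chr1:55088053-55088082, plus strand) ends 66 bases before its start and also lies in the window before the downstream start of Hspd1, which is read in the opposite direction. Those of Hsph1 (chr5:149636337-149636456, minus strand), Hspa1a (chr17:34972157-34972276, minus), Chordc1 (chr9:18292147-18292266, plus) and Dnajb1 (chr8:83608055-83608174, plus) are the 120 bases before the start. For genes with several starts the one farthest upstream was taken. For Dnajb4 (chr3:152193846-152193875, minus) the 30 bases before its second, downstream start are shown, because the window of its first start held no match.
Hspe1: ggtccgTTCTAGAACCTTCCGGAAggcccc
Hsph1: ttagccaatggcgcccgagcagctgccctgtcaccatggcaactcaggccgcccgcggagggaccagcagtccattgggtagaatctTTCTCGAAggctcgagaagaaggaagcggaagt
Hspa1a: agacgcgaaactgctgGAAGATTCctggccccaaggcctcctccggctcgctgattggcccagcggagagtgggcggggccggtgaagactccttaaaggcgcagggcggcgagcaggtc
Chordc1: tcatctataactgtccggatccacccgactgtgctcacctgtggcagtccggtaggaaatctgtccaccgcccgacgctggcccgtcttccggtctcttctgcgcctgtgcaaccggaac
Dnajb1: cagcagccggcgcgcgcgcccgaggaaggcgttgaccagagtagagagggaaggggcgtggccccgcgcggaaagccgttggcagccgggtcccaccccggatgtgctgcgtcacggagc
Dnajb4: gttcgttcgttcgctgTTCTAGAAagtaca
Hspe1 and Hspd1 share the longest run of units among these, while the windows of Chordc1 and Dnajb1 hold none of these letters. A match here is a run of letters and not a shown binding site. The windows of Hspa1a and Hspa1b were the same at 247 of 250 positions, so the 2 genes differ little even before their coding parts.

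The arrays differed in how well they agreed within a genotype. Across genes the Hes1-null arrays correlated at r = 0.982 and the wild-type arrays at r = 0.995, and 683 and 109 genes in that order lay at least 2-fold apart within the genotype. Hes1 itself lay at 5.43 and 5.84 on the Hes1-null arrays, against 5.59 and 5.79 on the wild-type arrays (difference -0.06 ± 0.18). Its probe set therefore does not check the labels. Xist, the RNA of the inactive X chromosome, lay at 11.73 and 7.25 on Hes1-null replicates 1 and 2. It lay at 11.82 or more on the wild-type arrays, so Hes1-null replicate 2 stood apart. What this difference in Xist reflects was not tested. Contrasts of replicate 2 with the other arrays, and so of the genotypes, cannot be told apart from it. Calls of members that rest on 1 Hes1-null array are given with and without it. The leukocyte and progenitor markers Ptprc, Spn, Itgam, Kit and Laptm5, expected of marrow, had no value under 6.39 on any array.

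No heat shock chaperone gene separated the genotypes by limma's moderated test over all genes. Of the 36 measured, 0 had an adjusted p under 0.05, where 0.145% of all genes did. At an unadjusted p of 0.05 there was 1, Dnajb4, which is 2.78% of the members beside 8.29% of all genes. Differences ran from -1.21 (Dnajb4) to 0.32 (Dnajb1), with 25 negative and 11 positive. Their median was -0.11, against -0.02 over all genes. The genotypes did not overlap for 8 of the 36 genes, 3 higher and 5 lower in Hes1-null marrow, where 38.0% of all genes did not overlap. For 30 of the 36 genes the 95% interval of the difference excluded a 2-fold change in either direction. It reached 2-fold for Dnajb4, Hsph1, Chordc1, Hspd1, Trap1 and Stub1. A bulk RNA level cannot tell fewer cells of a type from less RNA per cell, and this holds for every value below.

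**Figure D1:**
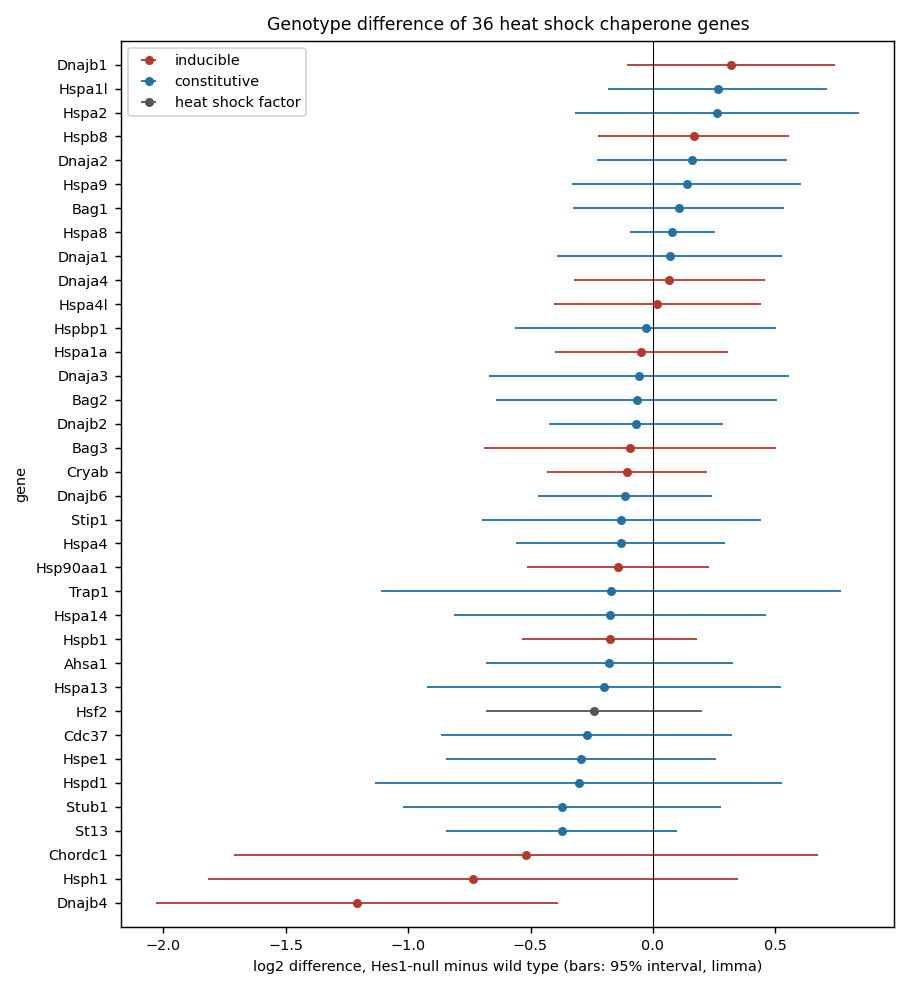
Each point is the log2 difference of 1 gene, Hes1-null minus wild type (horizontal axis), with its 95% interval from limma as a bar, coloured by class. Only the interval of Dnajb4, from -2.03 to -0.39, leaves out 0, and the intervals of Hsph1, Chordc1, Hspd1 and Trap1 are wider than its own.

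Among the J-domain proteins, which hand unfolded chains to Hsp70, Dnajb4 and Dnajb1 lay at opposite ends. Dnajb4 had 7.58 and 6.65 on the Hes1-null arrays, against 8.23 and 8.41 on the wild-type arrays. Both Hes1-null arrays were below both wild-type arrays, although the lower of them lay far below the other. The difference was -1.21 ± 0.33 (2.31-fold lower in Hes1-null marrow, unadjusted p = 0.0122, adjusted p = 0.395 by limma). Dnajb1, the J-domain partner of Hsp70 that heat induces, had 8.54 and 8.72 on the Hes1-null arrays, against 8.27 and 8.35 on the wild-type arrays. Those arrays did not overlap either, but the difference of 0.32 ± 0.17 did not pass (unadjusted p = 0.113, adjusted p = 0.708). Dnaja2, a constitutive J-domain protein, had 9.86 and 9.68 in Hes1-null marrow, against 9.64 and 9.57 in wild type. Dnaja1, Dnaja4, Dnajb2 and Dnajb6 overlapped between genotypes, with differences between -0.11 and 0.07. The other probe set of Dnaja1 alone gave -0.18 where the brighter one gave 0.07, so its sign depends on the probe set. Dnajb6 was read by a dim probe set (mean 6.23), higher on Hes1-null replicate 2. Probe sets that the annotation gives to both Gm4247 and Dnajb6 lay between 10.86 and 11.27. They gave differences from -0.03 to 0.01, each with Hes1-null replicate 2 below replicate 1.

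The Hsp70 genes moved little between genotypes. Hspa8, the constitutive cytosolic Hsp70, had 12.90 and 12.86 on the Hes1-null arrays, against 12.81 and 12.79 on the wild-type arrays (0.08 ± 0.07, 95% interval -0.10 to 0.25). The arrays did not overlap, although the interval includes 0, and its 3 probe sets gave differences of 0.06, 0.08 and 0.08. Quantile normalizing the arrays again turned the sign of the Hspa8 difference (-0.01). Hspa1a, the heat-induced form, had 6.48 and 6.34 in Hes1-null marrow, against 6.47 and 6.45 in wild type (-0.05 ± 0.14). All 4 Hspa1a values lie within a narrow band. A probe set that the annotation gives to both Hspa1a and Hspa1b had 7.85 and 7.50 in Hes1-null marrow, against 7.67 and 7.69 in wild type, and near-identical copies can share signal on an array. Hspa2 and Hspa1l, known best from male germ cells, had differences of 0.26 ± 0.23 and 0.26 ± 0.18. Hspa13, a microsome-associated relative, and Hspa14, which works at the ribosome, had -0.20 ± 0.29 and -0.17 ± 0.25. Both lay above wild type on 1 Hes1-null array and below it on the other.

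Of the Hsp110 genes, whose products release nucleotide from Hsp70, Hsph1 stood out by its spread. Hsph1 had 7.32 and 5.99 on the Hes1-null arrays, against 7.35 and 7.43 on the wild-type arrays. Hes1-null replicate 1 was almost level with wild type and replicate 2 far below it. The difference was therefore -0.73 ± 0.43 (adjusted p = 0.745). Hspa4 and Hspa4l differed by -0.13 ± 0.17 and 0.02 ± 0.17. The small heat shock proteins, which hold unfolded chains without ATP, were read by dim probe sets, with mean levels between 5.16 and 5.52. Hspb1, Hspb8 and Cryab differed by -0.18 ± 0.14, 0.17 ± 0.16 and -0.11 ± 0.13. Both Hspb1 values in Hes1-null marrow (5.31 and 5.54) were below both in wild type (5.57 and 5.64).

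The remaining partners of Hsp70 gave the 2 differences of -0.37. St13, the Hsp70-interacting protein Hip, had 9.07 and 8.75 in Hes1-null marrow, against 9.20 and 9.37 in wild type (-0.37 ± 0.19, adjusted p = 0.693). Its arrays did not overlap. Stub1, the ubiquitin ligase CHIP that marks chaperone clients for degradation, had 8.63 and 7.96, against 8.63 and 8.71 (-0.37 ± 0.26). The first Hes1-null array lay near wild type, and the Stub1 difference was -0.71 without it and -0.04 without the second. The exchange factors Bag1, Bag2, Bag3 and Hspbp1 had differences between -0.09 and 0.10. For all 4 the wild-type arrays lay between the Hes1-null arrays. Bag3, which links Hsp70 to selective autophagy and is heat-induced, had 8.002 and 8.58 in Hes1-null marrow, against 8.36 and 8.41 in wild type. It was the member that lay furthest above replicate 1 on Hes1-null replicate 2.

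Hsp90aa1, the inducible cytosolic Hsp90, had 11.60 and 11.25 on the Hes1-null arrays, against 11.59 and 11.54 on the wild-type arrays (-0.14 ± 0.15). Its 2 other probe sets gave -0.14 and -0.11. The Hsp90 cochaperones had differences of -0.13 (Stip1, which joins Hsp70 to Hsp90), -0.18 (Ahsa1, which speeds the Hsp90 ATPase), -0.27 (Cdc37, which brings kinases) and -0.52 (Chordc1). Chordc1, an Hsp90-binding protein also induced by heat, had 9.22 and 7.74 in Hes1-null marrow, against 8.99 and 9.01 in wild type. The wild-type arrays lay 0.015 apart and the Hes1-null arrays 1.47, the widest gap of all 36 genes (difference -0.52 ± 0.47, adjusted p = 0.854).

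The mitochondrial set was split in the same way between the Hes1-null arrays. Hspd1, the mitochondrial Hsp60, had 10.71 and 9.72 on the Hes1-null arrays, against 10.57 and 10.47 on the wild-type arrays (-0.30 ± 0.33). Hspe1, its Hsp10 lid, which shares the promoter stretch shown above, had 10.57 and 10.01, against 10.67 and 10.50 (-0.29 ± 0.22). The Hspe1 difference was -0.57 without Hes1-null replicate 1 and -0.0099 without replicate 2. The second probe sets gave -0.19 for Hspd1 and -0.28 for Hspe1. Trap1, the mitochondrial Hsp90, had 10.25 and 9.12 in Hes1-null marrow, against 9.90 and 9.81 in wild type (-0.17 ± 0.37). Hspd1 and Trap1 were thus above wild type on replicate 1 and below it on replicate 2, and so was the mitochondrial J-domain gene Dnaja3 (-0.06 ± 0.24). Hspa9, the mitochondrial Hsp70, had 11.06 and 10.64 in Hes1-null marrow, against 10.82 and 10.61 in wild type (0.14 ± 0.19). Hsf2, a heat shock factor active in development and able to pair with Hsf1, had 7.32 and 7.02 in Hes1-null marrow, against 7.42 and 7.40 in wild type. The difference was -0.24 ± 0.18 (adjusted p = 0.801), with arrays that did not overlap.

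**Figure D2:**
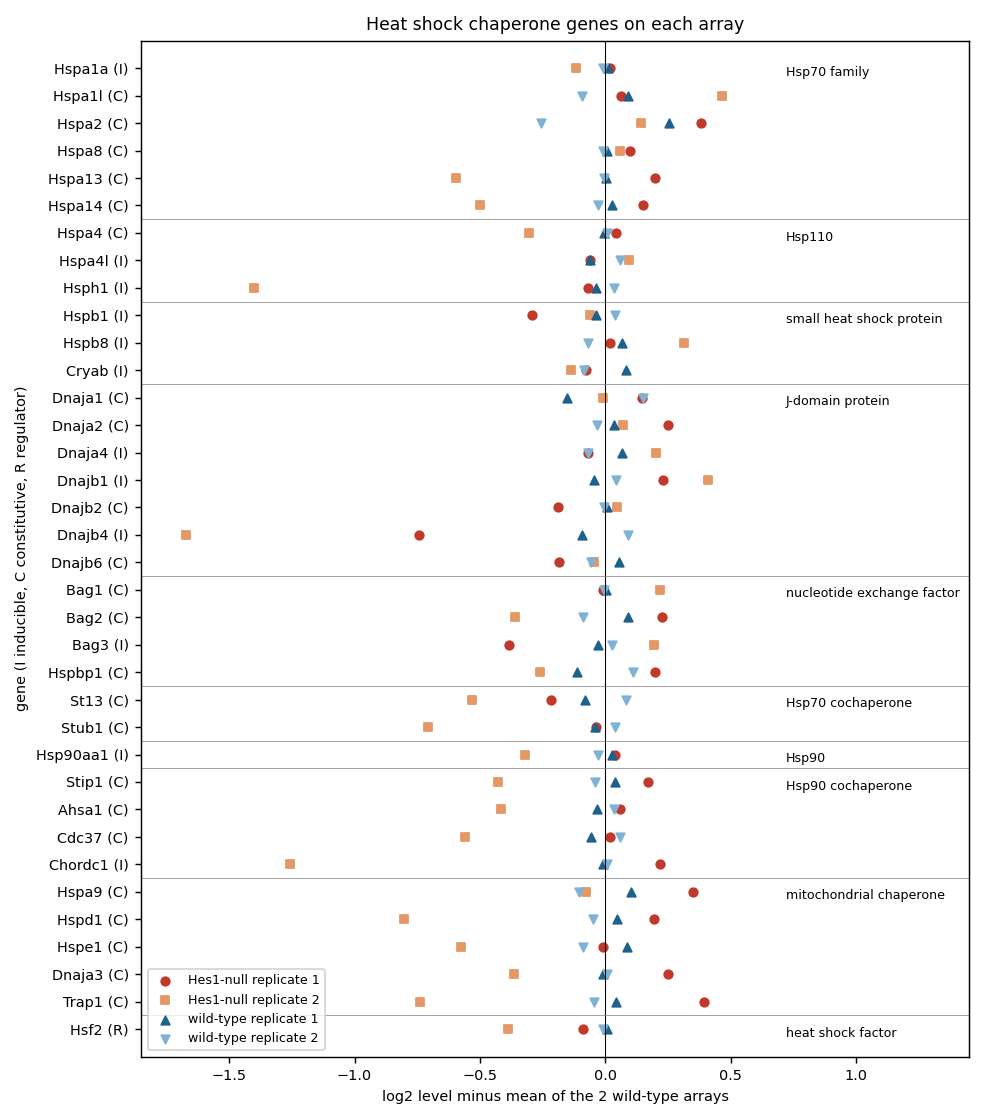
Each row is 1 gene grouped by role, and the horizontal axis is its log2 level on each array minus the mean of the 2 wild-type arrays. The squares of Hes1-null replicate 2 lie far to the left for Chordc1, Hsph1, Dnajb4, Hspd1 and Trap1 while the circles of replicate 1 lie near or to the right of 0, except for Dnajb4.

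The widest contrast in these genes was between the 2 Hes1-null arrays. Replicate 2 lay below replicate 1 for 26 of the 36 genes (72.2%), beside 43.6% of all genes. The median gap was -0.33, against 0.05 over all genes. Replicate 2 was at least 0.5 lower for 13 of the 36 (36.1%), beside 11.4% of all genes, and at least 0.5 higher for 1, beside 8.17%. A gap of at least 1 was found for 3 of them, beside 2.55% of all genes. The members are brighter than most genes, and brighter genes more often lay lower on this array. In level quartiles 3 and 4, the brightest, 58.6% and 62.0% of all genes were lower on it. Among the 28 members above the median gene level, 12 lay at least 0.5 lower (42.9%), where 19.5% of all genes above that level did. The 13 were Chordc1 (2.78-fold), Hsph1 (2.52-fold), Trap1 (2.20-fold), Hspd1 (1.998-fold), Dnajb4 (1.90-fold), Hspa13, Stub1, Hspa14, Dnaja3, Stip1, Bag2, Cdc37 and Hspe1. The wild-type arrays lay at least 0.5 apart for 1 member, Hspa2, beside 3.06% of all genes. For 17 of the 36 genes (47.2%) both wild-type values lay between the Hes1-null values, beside 28.7% of all genes. Such gaps were also found in other folding genes, as given below. These counts compare single arrays and carry no test.

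**Figure D3:**
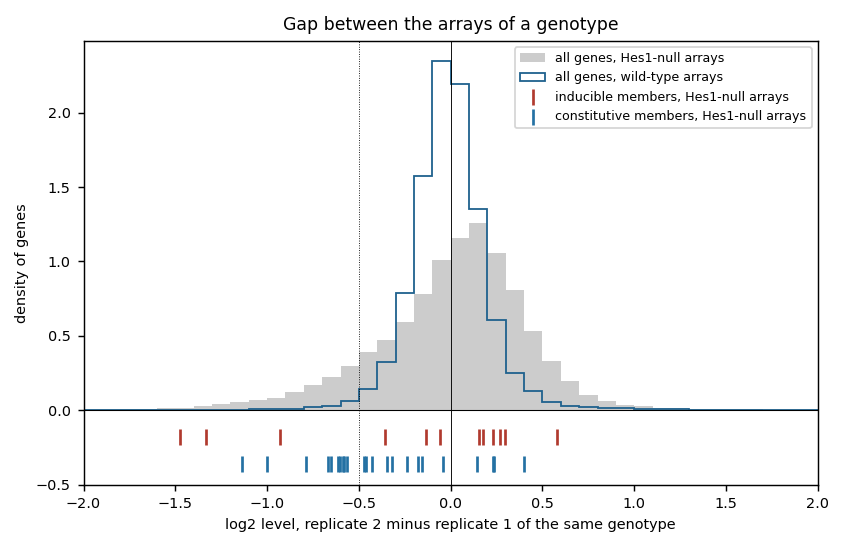
The grey histogram shows the log2 gap between the Hes1-null arrays (replicate 2 minus replicate 1) for all genes and the outline the same for the wild-type arrays, as a density. The ticks below mark the inducible and constitutive members on the Hes1-null arrays, of which 13 lie left of the dotted line at -0.5 and 1 lies at or above 0.5.

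Inducible and constitutive genes were then set side by side. The 12 measured inducible genes had a median difference of -0.10 between genotypes and the 23 constitutive genes one of -0.11. Against the wild-type mean, the median inducible gene lay at -0.06 on Hes1-null replicate 1 and at -0.09 on replicate 2. The median constitutive gene lay at 0.14 on replicate 1 and at -0.36 on replicate 2. Replicate 2 was lower for 6 of 12 inducible and 19 of 23 constitutive genes, with median gaps of 0.05 and -0.46. Under a broader reading of which genes heat induces, Hspa8, Hspd1, Hspe1, Dnaja1, Stip1 and Ahsa1 moved from the constitutive to the inducible class. Replicate 2 was then lower for 12 of 18 inducible (66.7%) and 13 of 17 constitutive genes (76.5%). The median gaps were -0.15 and -0.43, a smaller contrast between the classes. Within the inducible class, Chordc1, Hsph1 and Dnajb4 were at least 0.5 lower on replicate 2, Bag3 was 0.58 higher, and Hspa1a, Hspa4l, Dnajb1 and Cryab moved by at most 0.18. The 12 inducible genes were dimmer, with a median level of 7.37 against 9.10 for the 23 constitutive genes. Over all genes, Hes1-null replicate 2 was the lower array for 28.7%, 58.6% and 62.0% in level quartiles 2, 3 and 4 (4 the brightest). The difference between the classes was not tested, because the members were chosen with results known, and level was not separated from class. Of the 13 genes at least 0.5 lower on replicate 2, Hsph1, Dnajb4, Hspd1, Hspe1, Stub1 and Cdc37 hold a promoter match. Chordc1, Trap1, Hspa14, Dnaja3, Stip1 and Bag2 hold none in the windows searched, and Hspa13 had no window. Hspa1a, Dnajb6, Dnaja1, Hspb1 and Dnaja4 also hold a match, with gaps of 0.14 to 0.27 in size. By the other probe set of Dnaja1 alone, with 7.25 and 6.40 on the Hes1-null arrays, replicate 2 lay 0.85 lower. A probe set shared with Mir207 had 9.20 and 9.56, so whether Dnaja1 joins the 13 depends on the probe set. By the first reading of the classes, 6 of 11 inducible and 6 of 19 constitutive genes hold a 2-unit match. A 3-unit match lay in 0 and 3 of them. Of these 3, Hspd1 and Hspe1 share 1 stretch and count as inducible by the broader reading, so this split depends on the reading. A link between matches and gaps was not tested.

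Leaving out 1 Hes1-null array decided which members were called. Without Hes1-null replicate 1, limma called 5 of the 36 genes (13.9%), all lower, beside 5.01% of all genes called and 3.44% called lower. They were Dnajb4 (-1.67 ± 0.13), Hsph1 (-1.40 ± 0.11), Chordc1 (-1.26 ± 0.10), Hspd1 (-0.80 ± 0.10) and Trap1 (-0.74 ± 0.10), with adjusted p from 0.0381 to 0.0485. That fit compares 1 Hes1-null array with 2 wild-type arrays and takes its spread from the wild-type pair and from limma's moderation over genes, so the lone array is assumed to vary as little. Without Hes1-null replicate 2, limma called 0 of the 36, beside 0.0752% of all genes. At an unadjusted p under 0.05 there were 4 (Dnajb4, Trap1, Bag3 and Hspa9), beside 16.8% of all genes. Dnajb4 then differed by -0.74 ± 0.13 (adjusted p = 0.174) and Hsph1 by -0.07. Chordc1, Hspd1 and Trap1 turned positive, at 0.22, 0.20 and 0.40. Of these 5 genes, Dnajb4 lay 0.74 and 1.67 below the wild-type mean on Hes1-null replicates 1 and 2, and the other 4 were within 0.40 of it on replicate 1.

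Other folding genes were read beside the members. Of 12 measured cochaperones of Hsp70 and Hsp90 outside the set, 0 passed the test over all genes, 7 had positive and 5 negative differences, and the median was 0.03. The immunophilin gene Fkbp5, a glucocorticoid target whose product binds Hsp90, had 9.18 and 9.66 in Hes1-null marrow, against 8.58 and 8.55 in wild type (0.86 ± 0.21, adjusted p = 0.336). Its relatives Fkbp4 and Ppid had -0.55 ± 0.30 and -0.67 ± 0.43, with values of 8.54 and 7.70 against 8.70 and 8.64 for Fkbp4. Ppid had 8.69 and 7.37 in Hes1-null marrow, against 8.65 and 8.76 in wild type. Fkbp4 and Ppid, like Chordc1 and Hsph1, were thus low on Hes1-null replicate 2. Without Hes1-null replicate 1 the differences of Fkbp4 and Ppid were -0.97 and -1.33, while that of Fkbp5 was 1.10. Without Hes1-null replicate 2 the differences of Fkbp4, Ppid and Fkbp5 were -0.13, -0.01 and 0.62. The 13 genes of the cytosolic chaperonin TRiC and of prefoldin, which fold actin and tubulin, had a median of -0.09 with 0 passing. The 14 genes of mitochondrial import and proteolysis had a median of 0.07 with 0 passing. Hes1-null replicate 2 lay at least 0.5 below replicate 1 for 5 of the 12 other cochaperones (41.7%), beside 36.1% of the members and 11.4% of all genes. It did so for 4 of the 13 TRiC and prefoldin genes (30.8%) and 3 of the 14 import and proteolysis genes (21.4%).

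Chaperones of the endoplasmic reticulum had the most uniform differences of these folding lists. Of 14 measured, 13 were negative and for 12 both Hes1-null values lay below both wild-type values, as for 20.6% of all genes. Their median was -0.31, and 0 passed the test over all genes. Hsp90b1, the Hsp90 of this compartment, had 11.01 and 10.70 in Hes1-null marrow, against 11.33 and 11.41 in wild type (-0.52 ± 0.15, adjusted p = 0.421). Pdia6 and Hyou1 had -0.55 ± 0.22 and -0.49 ± 0.20. Hes1-null replicate 2 lay at least 0.5 below replicate 1 for 4 of the 14 (28.6%). Without Hes1-null replicate 1 the differences in this list ran from -1.29 (Pdia4) to 0.04 (Dnajc3). Without Hes1-null replicate 2 they ran from -0.36 (Hsp90b1) to 0.41 (Dnajb9). Large negative differences without replicate 1 were thus not limited to the members. On Hes1-null replicates 1 and 2 the median of this list lay at -0.12 and -0.53 from wild type, while the 5 mitochondrial chaperones lay at 0.25 and -0.57.

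Other genes that heat or misfolded protein induces gave no common direction. Of 6 measured, 0 passed the test, with a median of 0.36. Zfand2a, which encodes a partner of the proteasome, had 11.16 and 11.35 in Hes1-null marrow, against 10.58 and 10.76 in wild type (0.58 ± 0.14, adjusted p = 0.305). Hmox1, the heme oxygenase gene, had 7.27 and 8.08, against 8.26 and 8.93 (-0.92 ± 0.36). Ier5, whose product acts on Hsf1, had 6.62 and 8.34 in Hes1-null marrow, against 6.20 and 6.18 in wild type (1.29 ± 0.54). All 6 genes were higher on Hes1-null replicate 2 than on replicate 1, the opposite of most chaperones.

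By summed intensity, immediate early genes were higher and neutrophil and monocyte markers lower on both Hes1-null arrays than on either wild-type array. Their part in the chaperone values was not tested. Of 20 immediate early genes, which stress and sample handling induce within minutes, 19 had positive differences and 1, the AP-1 gene Jun, passed the test (2.70 ± 0.16, adjusted p = 0.0231). Their summed linear intensity was 15829 and 25503 on the Hes1-null arrays, against 6782 and 7189 on the wild-type arrays, so it was highest on Hes1-null replicate 2. Of 10 neutrophil markers 9 were negative and Ltf passed (-2.77 ± 0.23), with a summed intensity of 15408 and 14883 in Hes1-null marrow, against 30297 and 36143 in wild type. Of 10 monocyte and macrophage markers 8 were negative and Vcam1 passed (-2.62 ± 0.17), with sums of 8482 and 8494 against 14133 and 13499. Single markers were split between the Hes1-null arrays where these sums were not. Mpo, the myeloperoxidase gene, had 11.74 and 10.13 in Hes1-null marrow, against 12.83 and 12.69 in wild type. S100a8, a calcium-binding protein gene of neutrophils, had 8.09 and 9.70 in Hes1-null marrow, against 10.30 and 11.11 in wild type.
The progenitor marker Kit, in the leukocyte list, had 8.29 and 6.39 in Hes1-null marrow, against 9.02 and 8.87 in wild type, so both Hes1-null arrays were below wild type and replicate 2 was the lower. The leukocyte list as a whole summed to 10454 and 9743 in Hes1-null marrow, against 10805 and 11274 in wild type, with 0 of 5 called. Erythroid markers (7 measured, 0 called) summed to 325 and 515, against 566 and 490. B cell markers (5 measured, 0 called) summed to 1577 and 852, against 1079 and 1070. Platelet markers (4 measured, 0 called) summed to 260 and 241, against 388 and 529. For T cell markers (5 measured, 0 called) the sums were 285 and 249, against 338 and 321. For stromal and endothelial markers (6 measured, 0 called) they were 324 and 343, against 453 and 477. No marker was listed at 0 on any array, since these intensities include background.

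**Figure D4:**
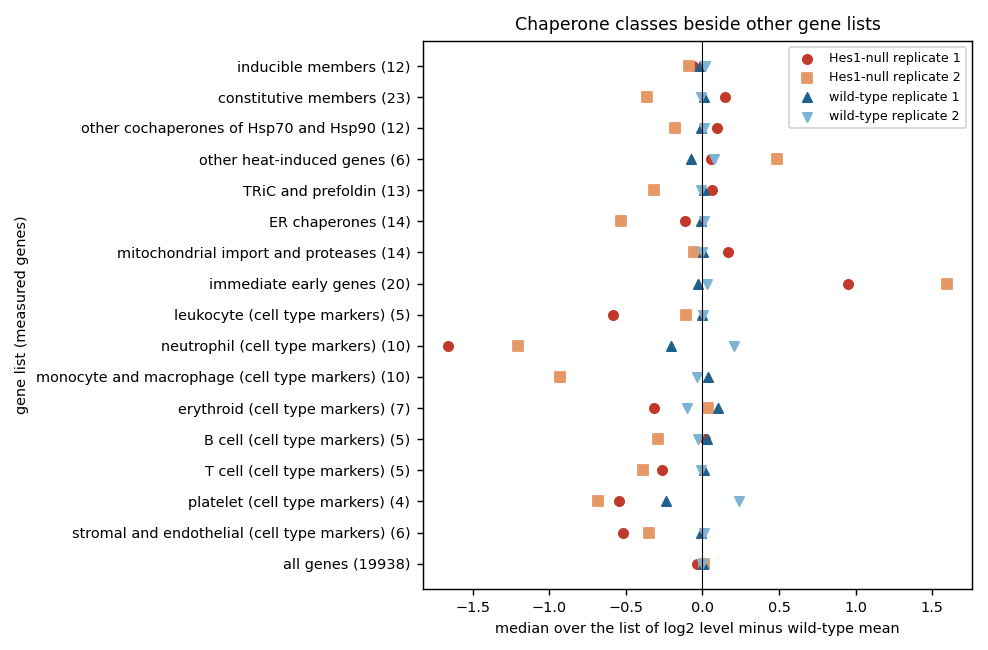
Each row is a gene list with its number of measured genes, and each symbol is the list's median log2 level on 1 array minus the wild-type mean. The constitutive members lie at 0.14 and -0.36 on Hes1-null replicates 1 and 2, immediate early genes lie to the right on both, and neutrophil and monocyte markers lie to the left on both.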

How the data were processed

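Total RNA was hybridised to Affymetrix mouse gene arrays, 1 per sample. The authors deposited intensities per probe set, which the submitters' processing notes trace to RMA in Expression Console (Affymetrix), without a version in the sources used here. They are on a linear scale (array medians 65.0 to 67.3), so log2 was taken, with nothing added and no further normalization. Of 35556 probe sets, 21789 had 1 gene symbol. The brightest stood for each of 19938 genes. Hspa8, Hspd1, Hspe1, Hsp90aa1, Hspb1 and Dnaja1 had more than 1 such probe set. The annotation does not settle whether each of these reads the gene itself or a related copy. All genes were fitted with limma 3.58.1 in R 4.3.3 (lmFit, eBayes with intensity trend, genotype only, two-sided) and adjusted by Benjamini-Hochberg. The test was tried on simulated data that gave all 4 arrays the same spread. The Hes1-null arrays agreed less well than the wild-type arrays, so that trial does not vouch for the test here. There are no detection calls, and 4 arrays limit the precision. The labels do not say that samples came from separate animals, so it is not known which spread the p-values measure. Xist lay much further apart on the Hes1-null arrays (11.73 and 7.25) than on the wild-type arrays (12.00 and 11.82). The genes, classes and lists were chosen with earlier results of these data known. All members are accounted for; array values go to those with unadjusted p under 0.05, non-overlapping genotypes 0.5 apart, or replicates 1 apart, and to the core chaperones, and other members shown were picked after their values were seen. Of each list, genes past the test and the smallest p-values are named. Kit, Mpo, S100a8, Fkbp4, Ppid, Pdia4, Dnajc3 and Dnajb9 were named after their values were seen.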

Additional observations from a re-analysis of the deposited data

How the results depend on the processing

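No chaperone gene was called in any fit on all 4 arrays. The number of all genes called was 29, and it was 89 with the replicate number as a block, 45 with array weights, 17 with a filter on level at the 25th percentile and 5 with one at the median. The block called 0 of the 36 members. The labels do not say what a replicate number shares, and same-numbered arrays deviated from their group means with r = 0.05. With 1 array left out the calls ran from 6 to 999 over all genes and from 0 to 5 among the members, the highest of both without Hes1-null replicate 1. The median difference of inducible genes (-0.10) was -0.070 after quantile normalization and -0.069 after centring the arrays on their medians, and it ran from -0.10 to -0.063 with 1 array left out. That of constitutive genes ran from -0.36 without Hes1-null replicate 1 to 0.14 without Hes1-null replicate 2, so that array decides its sign. Beside these, signs turned for Hspa8 on quantile normalization (-0.010), for Hspbp1 on centring (0.0015), and for Dnaja1 with the mean of its probe sets (-0.056) or the dimmest one (-0.18), the last an alternative chosen after seeing the data. With 1 array left out, signs turned for 21 of the 36 genes: Ahsa1 (-0.42 to 0.059), Bag1 (-0.0096 to 0.22), Bag2 (-0.36 to 0.23), Bag3 (-0.38 to 0.19), Cdc37 (-0.56 to 0.021), Chordc1 (-1.26 to 0.22), Dnaja1 (-0.085 to 0.22), Dnaja3 (-0.36 to 0.25), Dnaja4 (-0.069 to 0.20), Dnajb2 (-0.19 to 0.048), Hsp90aa1 (-0.32 to 0.037), Hspa13 (-0.59 to 0.20), Hspa14 (-0.50 to 0.15), Hspa1a (-0.12 to 0.021), Hspa4 (-0.30 to 0.042), Hspa4l (-0.060 to 0.097), Hspa9 (-0.077 to 0.35), Hspbp1 (-0.26 to 0.20), Hspd1 (-0.80 to 0.20), Stip1 (-0.43 to 0.17), Trap1 (-0.74 to 0.40). The other 15 kept their sign, among them Dnajb4 (-1.67 to -0.74), Hsph1 (-1.40 to -0.067), Dnajb1 (0.23 to 0.41) and St13 (-0.53 to -0.21). The cause of these changes was not tested. Dim probe sets, such as those of the small heat shock proteins, are not shown to lie above background.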
